A study of Drosophila melanogaster with 19 samples.

Results

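The CR-numbered genes of *Drosophila melanogaster* were examined across male germline stages. A CR number is the catalogue name the fly annotation once gave to genes with no protein product, whether long noncoding RNA, antisense RNA or pseudogene. A gene entered if its symbol was CR followed by digits only and if its highest value over the 9 stage columns of the deposited table was at least 8 RPKM (reads per kilobase of gene, scaled to library size). Of 12810 genes in the table, 242 carried such a symbol and 185 of these reached 8. The other 57 stayed under 8 RPKM in every stage. Because stage values chose the members, their levels by stage are a description. Just inside the threshold were CR31514 (8.12 RPKM), CR40282 (8.27), CR43105 (8.53), CR43496 (8.57) and CR41243 (8.94), and just outside it CR43474 (7.95), CR43480 (7.70), CR14578 (7.66), CR43641 (7.53) and CR42860 (7.503).

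The tested material was single cysts of the testis, clones of germ cells wrapped by somatic cyst cells, each picked with a needle and turned into a cDNA library primed on poly(A). Arrested spermatocyte cysts of the mutant *always early* (*aly*) gave 2 libraries. The other groups were niche (2), the testis tip that holds the stem cells, gonialblast (GB, 2), spermatogonia of 4 cells (S4, 2), 8 cells (S8, 2) and 16 cells (S16, 1), early spermatocyte (EC, 3), and late spermatocyte in groups named LC1 (3) and LC2 (2), both labelled late spermatocyte and nothing else. The labels give no *aly* allele, strain or age, and they write germline stem cell as the cell type of every library, so the stage name alone separates the groups.

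Long noncoding RNAs, which are transcribed and spliced like messenger RNA but carry no long reading frame, are especially numerous in the testis, and in this fly the loss of many testis-specific ones disturbs late sperm development. Spermatocytes switch on a large programme of testis-specific transcription while in meiotic prophase. Much of it needs tMAC, a testis form of a conserved chromatin complex of which *aly* encodes a subunit, and in *aly* mutants spermatocytes arrest before the meiotic divisions without most transcripts of sperm formation.

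Only some members are long noncoding RNAs by today's annotation, so they are called CR-numbered genes here. Of the 185, the BDGP6.54 annotation lists 99 as lncRNA, 35 as antisense RNA and 37 as pseudogenes, 2 as hairpin RNAs, 1 as an snRNA and 1 as a small noncoding RNA. It lists CR11700 and CR43610 as protein-coding, and 8 members were not matched in it. Of 177 members with a position, 47 share exon bases with a gene on the opposite strand, 15 with one on the same strand, 82 share no base with any gene and 64 have a single exon. Whether reads were counted by strand is not given in the sources used here, so reads of a member and of a gene overlapping it cannot be told apart. How reads that match several places were counted is not given either, so levels of pseudogenes with a near-identical parent are uncertain.

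The table holds 1 mean per stage, from which the reads of 20 single libraries were recovered for 12801 genes. The LC2 mean proved to hold 3 libraries although the labels name 2, and every value against late spermatocytes was also computed leaving out each of them. Depth was 810498 to 5108391 recovered reads per library, the lowest in S16. For a gene 1 kb long, 3 reads in a library came to between 0.612 and 3.22 RPKM (counting error only), so a member listed at 0 is one not detected at this depth. No gene exceeded 1 read per base of its length in any library, and this limit stood at 204 and 293 RPKM in *aly*, 298 to 852 in LC1 and LC2, and 1075 in S16. RNA of the gene *aly* itself averaged 31.9 RPKM in *aly* cysts, against 64.4 in LC1, 51.0 in LC2 and 103.2 in EC, so the transcript is still present in the mutant libraries.

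Late spermatocytes were the main site of these RNAs. The highest value fell in LC2 for 106 members (57.3%) and in LC1 for 18 (9.73%), together 124 (67.0%), beside 32.3% of the 10579 genes of the table that reach 8. Niche held the highest value of 13, GB of 4, S4 of 3, S8 of 4, S16 of 15, EC of 12 and *aly* of 10. The median member stood at 3.10 RPKM in *aly*, at 0 in every group up to S16, and then at 2.60 (EC), 24.2 (LC1) and 32.2 (LC2). Members were also more restricted than genes at large. Of the 124 that peak in LC1 or LC2, 87 (70.2%) were listed at 0 in all 5 stages from niche to S16, beside 42.4% of all genes that peak there, and 28 members (15.1%) reached 1 RPKM in all 9 columns, beside 51.5% of genes. As these are bulk libraries of whole cysts on a relative scale, fewer cells holding an RNA and less of it per cell cannot be told apart.

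**Figure D1:**
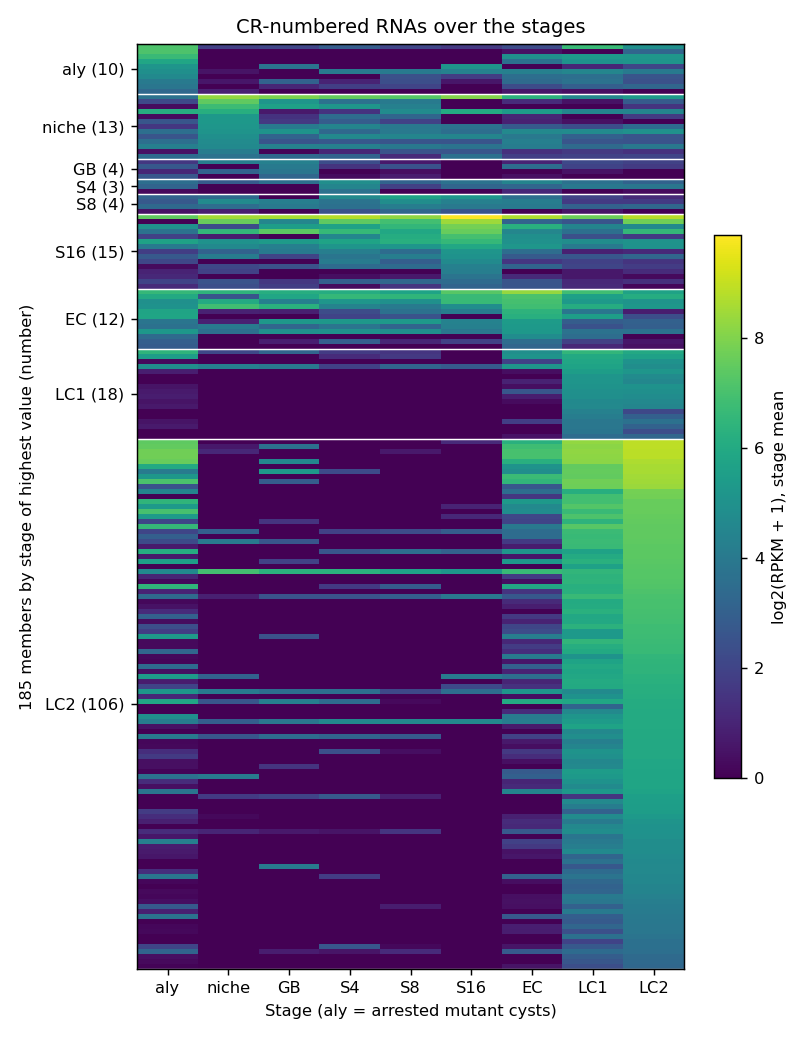
Each row is 1 of the 185 members, each column a stage mean as log2(RPKM + 1), with *aly* at the left and the stages from niche to LC2 after it; rows are grouped by the stage of the highest value, with its number of members. The 106 members that peak in LC2 form the largest block, dark from niche to S16 and for the most part dark in *aly*.

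The members that peak before the spermatocyte stages were few, and several carried reads they may share with a neighbour. CR42491, which shares 377 bases on the same strand with the ribosomal protein gene *RpL22*, led the niche group at 299.5 and 322 RPKM, and its 9 stage values followed those of *RpL22* (r = 0.982). CR43275, a pseudogene that overlaps nothing, stood at 139 and 210.5 in niche, 36.7 and 33.8 for GB, 15.3 and 8.72 for S4, 12.5 and 19 for S8, and 0 in S16. The antisense RNA CR31084 stood at 97.5 and 117 in niche, 40.8 and 56.7 for GB, 34.2 and 35.9 for S4, 8.96 and 28.8 for S8, and 0 in S16, EC and LC1. Both were thus highest in the niche libraries and had no read in S16. CR31084 shares 135 exon bases with *CG34291* on the other strand, and the r of the pair over 9 stages was 0.997.

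The smallest groups rested on few reads. CR43257, antisense to the peptide hormone gene *ETH*, averaged 18.8 RPKM in GB from 26.2 and 11.3. CR43281 (31.1 and 0) and CR40190 (26.5 and 1.06) came almost wholly from 1 GB library. In S4, CR43670 stood at 36.3 and 21.2, CR32218 at 42.4 and 1.28, and CR43704 at 0 and 24.2, the last from 17 reads. The libraries of the peak stage differed by over 4-fold in 3 of 4 members peaking in GB and 2 of 3 in S4, 4 of 13 in niche, 1 of 4 in S8, 1 of 12 in EC, 0 of 18 in LC1, 13 of 106 in LC2 and 0 of 10 in *aly*. In S8, CR43496 stood at 17.1 and 0, whereas CR32027 stood at 55.3 and 44.9, CR30055 at 33.7 and 21.7 and CR43241 at 18.9 and 15.7.

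CR43264, an RNA of 318 bases with 1 exon on chromosome X (BDGP6.54 X:5831898-5832215, minus strand, inside an intron of *CG15765* on the other strand), had the highest stage value of any member and was present in every library. It was the highest member in each group from niche to EC, whereas CR9284 was higher in LC1 (312 RPKM) and LC2 (479.7) and CR42767 in *aly* (213). CR43264 stood at 152 and 201 RPKM in *aly*. By stage CR43264 stood at 362 and 375 in niche, 355 and 422 for GB, 292 and 596 for S4, 233 and 367 for S8, 943 in S16, 297, 478 and 452 in EC, 183, 200.4 and 220.4 in LC1, and 272, 378 and 718 in LC2. Of the limit of 1 read per base CR43264 held 68.6 to 74.5% in *aly*, 75.8 to 87.7% from GB to S16, 79.6 to 85.2% in LC2, 48.1 to 62.0% in EC, 42.5 to 51.6% in niche and 39.6 to 65.4% in LC1. The S16 library, where its level was highest, also has the highest limit, and the part of the limit in its levels was not tested. CR43264 did not pass the test of *aly* against late spermatocytes (-0.73 ± 0.33, adjusted p = 0.0945, limma with Benjamini-Hochberg adjustment). Against EC it passed as lower in *aly* (-1.19 ± 0.37, adjusted p = 0.0322, by the same test). The limit of 204 and 293 RPKM in the *aly* libraries lies under every EC value of CR43264. The direction was therefore fixed by the limit and is not read as a result. CR43264 held a larger share of the limit in *aly* than in EC. The genes of the table most like it over the 9 stage values of log2(RPKM + 1) were *CG13540* (r = 0.967), *CG14044* (0.950) and *robl* (0.936), a dynein light chain.

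Beside CR43264, the S16 group was led by CR40469 and CR42861, both unspliced lncRNAs of chromosome X. CR40469, of 214 bases, stood at 0 and 0 RPKM in *aly*, 174 and 215 in niche, 17.5 and 27.0 for GB, 109.7 and 236 for S4, 89.6 and 146 for S8, 347 in S16, 0, 14.4 and 8.67 in EC, 2.78, 4.30 and 7.80 in LC1, and 78.1, 203 and 354 in LC2. It was therefore low in GB, EC and LC1 and high in the groups on either side of them. CR42861 had stage means of 3.86 RPKM in the niche, 44.3 for GB, 51.1 for S4, 92.4 for S8, 223 for S16, 74.3 for EC and 20.8 for LC1.

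The step from mitosis to the spermatocyte stage was compared as EC against S4, S8 and S16, weighted by library. Differences between groups are fitted log2 differences of RPKM + 1 (limma, ± SE), and a member is said to have risen or fallen only at an adjusted p under 0.05 over all genes fitted with at least 8 RPKM on the higher side. Nothing in the labels says that libraries of a group came from separate animals, so p-values measure the spread between libraries. That spread was estimated within all 9 groups together. In EC, 43 members rose and 9 fell, beside 22.1% and 7.06% of all genes fitted. With members that reach 8 RPKM in a stage outside the comparison, 41 of 174 rose (23.6%), beside 26.5% of genes chosen alike, and 8 fell (4.6%), beside 8.4%. The median difference was 0.63 for members and 0.48 for all genes, or 0.58 and 0.43 with genes that lack reads on a side set at their bound. Quantile scaling, which moves the median gene by -0.71, gave 29 higher and 21 lower.

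Several lncRNAs of chromosome X were among the largest rises. CR32658 stood at 165, 185 and 33.8 RPKM in EC and had no read in the 5 spermatogonial libraries, at least 32.6-fold higher (6.68 ± 0.48, adjusted p = 1.02e-07, limma with Benjamini-Hochberg adjustment). CR42767 stood at 203, 154 and 29.1 in EC against 1.24 in 1 S8 library and 0 in the other spermatogonia (6.39 ± 0.53). CR32657, 3568 bases from CR32658, stood at 128, 109 and 28.9 in EC and had no read in spermatogonia, at least 9.70-fold higher (6.23 ± 0.68). The smallest of these 3 values came from the same EC library each time, EC library c, which was the lowest EC library for 28 of the 43 members that rose (65.1%) and for 62.3% of all genes that rose. The pseudogene CR33318 on 2L, second in size of difference after CR32658, stood at 171, 103.3 and 40.8 in EC and 0 in spermatogonia, at least 17.0-fold higher (6.51 ± 0.45). Of the 41 members that rose and have a position, 17 (41.5%) lie on X, beside 19.1% of all genes that rose, and 15 of these 17 went on to their highest value in LC2. Of all members 57.3% peak there, and the share of X-linked genes that rose was not computed. CR32658, CR42767, CR32690 and CR32661 stood at 66.8 to 94.3% of the limit of 1 read per base in LC1 and LC2. That limit was 298 to 556 RPKM in LC1 and 341 to 852 in LC2, and its part in their peak was not tested.

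The falls into EC were led by CR40469, at 0, 14.4 and 8.67 RPKM in EC against 89.6 to 347 in spermatogonia (-4.96 ± 0.72, adjusted p = 6.4e-05, limma with Benjamini-Hochberg adjustment). CR31084 had no read in EC against 0 to 35.9 in spermatogonia, at least 3.74-fold lower (-3.71 ± 0.46). CR34335, which RefSeq lists as an lncRNA, stood at 14.9, 24.8 and 26.1 in EC, against 69.0 and 127 in S4, 45.5 and 73.2 in S8 and 190 in S16 (-2.01 ± 0.39). The EC and spermatogonial libraries of CR40469 and CR34335 did not overlap, whereas the lone S16 library of CR31084 was at 0 like EC. CR43614, antisense to *CG3626*, passed narrowly at 2.66, 3.32 and 0 in EC against 0 to 26.0 in spermatogonia (-1.92 ± 0.74, adjusted p = 0.0497, limma with Benjamini-Hochberg adjustment), and without any 1 of 5 libraries, S4 library a, S16 or EC library a, b or c, it no longer passed.

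The summed RNA of muscle sheath markers was 2.03 to 3.68 RPKM in EC libraries and 15.8 to 226 in spermatogonia, 4 of 6 of these genes fell in EC, and their part in the EC values was not tested. The 6 spermatogonial genes of the lists summed to 166 to 185 in EC and 184 to 664 in spermatogonia. The testis TAFs, which work beside tMAC, summed to 245 to 622 RPKM in EC against 2.62 to 29.7 in spermatogonia, and 4 of 4 measured rose, as did 6 of 9 tMAC subunits and 11 of 14 spermatid genes.

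Late spermatocytes, LC1 and LC2 with equal weight, were compared with EC. In late spermatocytes 113 members rose and 20 fell, beside 23.4% and 20.6% of all genes fitted. Many of these qualified as members only through LC1 or LC2, and nothing is read from the excess. Of the 99 that reach 8 elsewhere, 33 rose (33.3%), beside 19.6% of genes chosen alike, and 18 fell (18.2%), beside 27.3%. The median difference was 2.60 for all 185 members and 0.12 for all genes, or 2.01 and 0.11 at the bounds. Of the 113, 104 had every late library above every EC library, 24 were listed at 0 in EC and 52 stood under 1 RPKM there. The 113 were called on these same libraries and the shares for all genes were not computed, so these counts are a description only.

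CR43608, an unspliced lncRNA on 2L, showed the largest difference. It stood at 82.2, 64.5 and 83.3 RPKM in LC1 and 88.9, 177 and 103.7 in LC2, with no read in EC, at least 23.0-fold higher (6.58 ± 0.29). CR43451 on 3R stood at 102.6, 78.2 and 76.3 in LC1 and 106, 189.7 and 157 in LC2 against 0, 0.821 and 0 in EC (6.53 ± 0.31). CR43721 on 2L had no read in EC (at least 10.8-fold higher), and CR42836 on 3R stood at 0.889, 1.11 and 0 there. All 4 were at 0 in each library from niche to S16, and at or near 0 in EC. No p is given for these 4, since each reached 8 RPKM in LC1 and LC2 only and was chosen by those values.

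The 20 that fell included 5 pseudogenes. CR43669, a pseudogene on 2L, stood at 5.63, 27.9 and 7.90 RPKM in LC1 and 1.21, 1.05 and 0 in LC2 against 67.2, 107 and 75.8 in EC (-4.22 ± 0.50, adjusted p = 4.55e-06, limma with Benjamini-Hochberg adjustment). CR42842 stood at 9.02, 9.29 and 13.5 in LC1 and 0 in all of LC2 against 22.4, 28.1 and 30.9 in EC (-3.05 ± 0.25). CR12842, a pseudogene on 2R, stood at 0.951 to 9.30 in late libraries against 22.7, 46.9 and 19.3 in EC (-2.98 ± 0.53). Hairpin RNAs, precursors of endogenous small interfering RNAs, fell as well, and CR18854 and CR32207 had their highest value in EC. CR18854 stood at 106, 122 and 116 RPKM in LC1 and 41.1, 53.1 and 59.95 in LC2 against 212, 348 and 393 in EC (-2.00 ± 0.27), and CR32207 at 35.2 to 41.9 in LC1 and 20.8 to 44.1 in LC2 against 93.5, 133 and 145 in EC (-1.76 ± 0.30). CR43481, antisense to the heat shock gene *Hsp67Ba*, fell by 2.70 ± 0.94 (adjusted p = 0.0246, limma with Benjamini-Hochberg adjustment), a call lost without any 1 of the 3 EC libraries (-2.58 to -2.85).

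Dependence on *aly* was compared as *aly* cysts against late spermatocytes, which asks which of these RNAs are lost with the tMAC subunit. Since *aly* cysts arrest, an RNA that needs *aly* and one that belongs to a stage the mutant cysts do not reach cannot be told apart here. In *aly* cysts 94 members fell and 9 rose, beside 18.1% and 14.4% of all genes fitted. The members' median difference was -2.06 and that of all genes 0.07, and -2.06 and 0.07 with genes that lack reads on a side set at their bound. The choice of members used both sides of this comparison, so the excess over the background is a description. Of the 93 members that reach 8 RPKM in a stage outside it, 16 fell (17.2%), beside 12.6% of genes chosen alike, and 7 rose (7.53%), beside 16.6%. Among the 155 members that reach 8 in LC1 or LC2, 94 fell (60.6%), beside 26.7% of genes that do. With LC1 alone as the late side 83 fell and 4 rose, and with LC2 alone 98 fell and 10 rose.

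**Figure D2:**
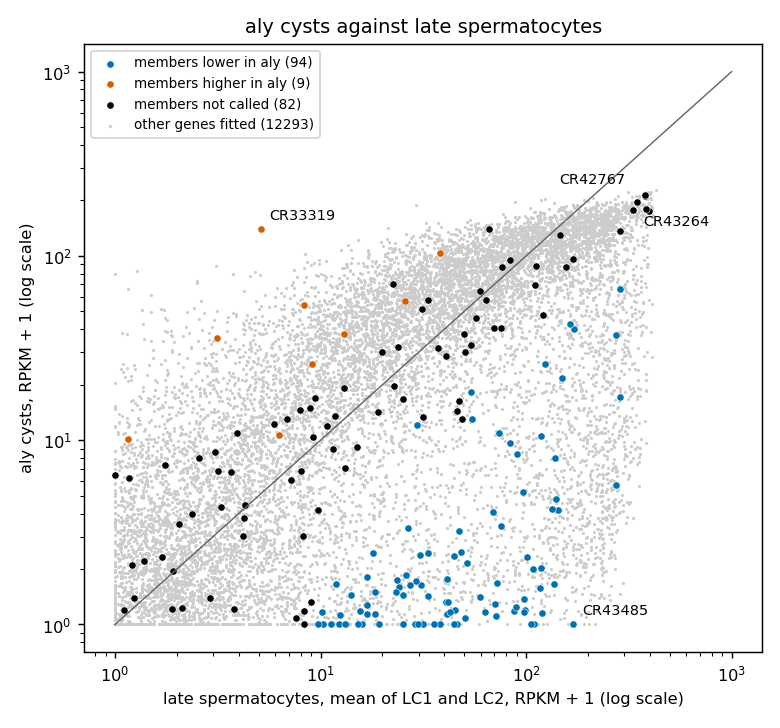
Each point is a gene, with its mean RPKM + 1 in *aly* cysts on the y axis and the mean of LC1 and LC2 on the x axis, both log scales; blue members fell, orange rose, black did not pass the test, grey points are the other genes fitted and the line marks equal values. Most of the 94 members that fell lie along the floor of the plot, and CR33319 stands apart at 138 RPKM in *aly*.

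Most of the 94 that fell were under 1 RPKM in *aly* cysts. Their median was 0.475 RPKM in *aly* (0 to 64.9), against 30.9 in LC1 and 61.7 in LC2, and 0.887 in EC. In *aly*, 62 stood under 1 RPKM, of which 21 had no read, and 13 reached 8. The median difference was -4.14 (-7.29 to -1.26). In 90 of the 94 both *aly* libraries lay below every late library, but the 94 were called on these same libraries. The share for all genes was not computed, so that count is a description only. Before the spermatocyte stages, 75 of the 94 were listed at 0 in all groups, and 79 were higher in LC2 than in LC1. The shares for all genes that fell were not computed here either, so nothing is read from these counts. *cherub* (CR43283), an lncRNA known from tumours of fly neural stem cells, was one of the 94, at 0.444 RPKM in *aly* against 14.3 in LC1 and 11.9 in LC2 (-3.20).

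CR43485 on 3L, an unspliced RNA of 476 bases that overlaps no gene, fell most. It had no read in either *aly* library against 128, 93.0 and 135 RPKM in LC1 and 159.9, 312 and 178 in LC2, at least 91.1-fold lower (-7.29 ± 0.49). CR43451 stood at 0 and 0.312 in *aly* against 76.3 to 102.6 in LC1 and 106 to 189.7 in LC2 (-6.62 ± 0.36). CR43721 had no read in *aly* against 69.7, 32.1 and 46.7 in LC1 and 89.5, 248 and 143 in LC2, at least 34.1-fold lower (-6.40 ± 0.39). CR42836 stood at 0.881 and 0.422 in *aly* against 89.2 to 117 in LC1 and 117 to 230.1 in LC2 (-6.30 ± 0.38). None of these 4 shares a base with another gene, and in each the *aly* libraries lay at the level of EC or under it. The other 2 of the 6 largest falls were CR43160 (0.409 and 0 in *aly* against 58.7 to 172 in late libraries, -6.30 ± 0.50) and CR43639 (0.330 and 0 against 44.8 to 213.5, -6.19 ± 0.60).

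Some members that fell were expressed early as well, and for these the test does not rest on their choice. CR40469 had no read in *aly*, although it stood at 89.6 to 347 RPKM in spermatogonia, and was at least 26.4-fold lower than in late spermatocytes (-4.99 ± 0.81, adjusted p = 0.000139, limma with Benjamini-Hochberg adjustment) and its late RNA was for the most part that of LC2. CR33318 stood at 36.3 and 36.4 in *aly* against 174, 160.0 and 215 in LC1 and 176, 359 and 552 in LC2 (-2.71 ± 0.50, adjusted p = 0.000441, limma with Benjamini-Hochberg adjustment). CR34335 stood at 14.7 and 9.42 in *aly* against 6.70 to 17.2 in LC1 and 52.1 to 147 in LC2 (-1.31 ± 0.43, adjusted p = 0.0255, limma with Benjamini-Hochberg adjustment). Its *aly* values lay within the range of LC1 and below that of LC2.

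**Figure D3:**
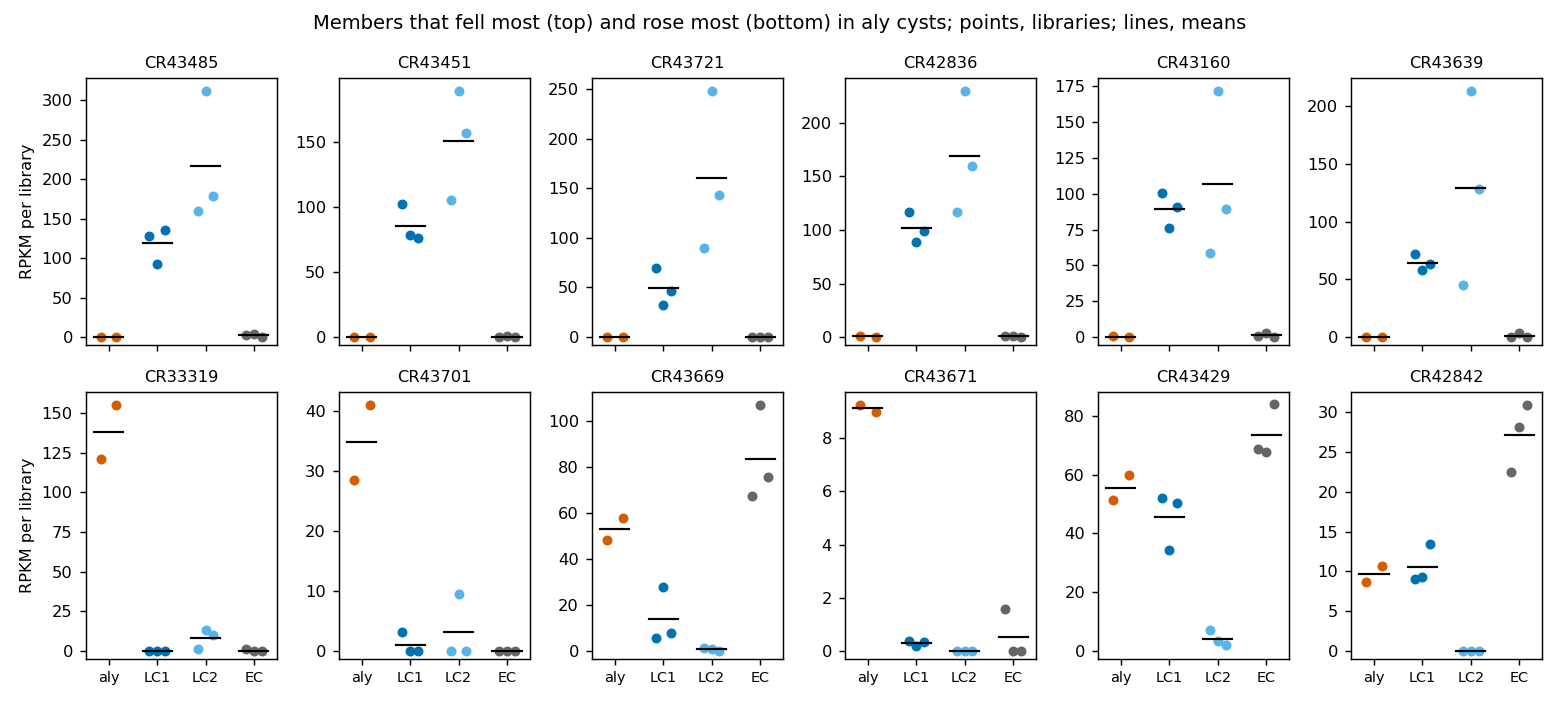
RPKM in each library (points) and group means (lines) of *aly*, LC1, LC2 and EC for the 6 members with the largest fall in *aly* against late spermatocytes (top) and the 6 with the largest rise (bottom); the y axes differ. All 6 at the top lie at or near 0 in *aly* and EC, and CR33319 at the bottom stands at 121 and 155 in *aly* and at 13.5 or less in the other groups.

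CR33319 showed the opposite pattern and the largest rise. It is a pseudogene of 2 exons on 2L (BDGP6.54 2L:20928824-20929525, plus strand) that shares 70 exon bases with *CG9270* on the other strand. Its RNA stood at 121 and 155 RPKM in *aly*, from 352 and 314 reads, against 0 in all LC1 libraries, 1.15, 13.5 and 10.1 in LC2, and 1.04, 0 and 0 in EC, with no read in any earlier library (5.70 ± 0.54 against late spermatocytes and 6.77 ± 0.60 against EC). No p is given, since its means reached 8 only in *aly* (138 RPKM) and LC2 (8.22 RPKM), the values that made it a member. *CG9270* averaged 1.87 RPKM in *aly* against 13.0 in LC1 and 4.71 in LC2 and did not pass the test. The pseudogene next to it, CR33318, lies 4289 bases away on the same strand and fell in *aly*, so this pair of neighbours differed in sign. Over the 9 stage values the genes most like CR33319 were *CG13428* (r = 0.998), *GATAe* (0.997) and *CG16815* (0.997), all at 0.746 to 6.4 RPKM in *aly*, far lower than CR33319.

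The other rises were smaller. CR43669 stood at 48.3 and 57.6 RPKM in *aly*, against 5.63, 27.9 and 7.90 in LC1 and 0 to 1.21 in LC2, beside 67.2 to 107 in EC (3.59 ± 0.58, adjusted p = 0.000133, limma with Benjamini-Hochberg adjustment). CR43671, a pseudogene 24837 bases beyond CR43670, stood at 9.25 and 8.99 in *aly* against 0 to 0.380 in late libraries and 0 to 1.58 in EC (3.15 ± 0.38). The small RNA CR43701 of 93 bases stood at 28.5 and 41.0 in *aly*, from 13 reads in each library, against 3.20 in 1 LC1 and 9.54 in 1 LC2 library and 0 in the others (4.23 ± 0.78, adjusted p = 0.000433, limma with Benjamini-Hochberg adjustment). Its value of 34.7 in S16 rests on 3 reads. CR43435, an unspliced lncRNA on 3R, stood at 96.3 and 108 in *aly* against 30.3 to 45.8 in LC1 and 19.2 to 60.1 in LC2 (1.53 ± 0.49).

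CR43429 and CR42842 differed from LC2 and not from LC1. CR43429 stood at 51.3 and 59.9 RPKM in *aly* against 52.0, 34.4 and 50.3 in LC1 and 7.12, 3.28 and 2.22 in LC2, beside 68.6, 67.8 and 83.9 in EC (1.93 ± 0.58). Against LC1 alone the difference was 0.30 ± 0.65 (adjusted p = 0.8, limma with Benjamini-Hochberg adjustment), and the call was also lost without *aly* library a (2.04) or b (1.82). It shares 2140 of its 2301 bases with *Impbeta11*, not in the table, on the other strand. CR42842, a pseudogene that shares 318 of 330 bases with the hairpin RNA CR32207 on the other strand, stood at 8.65 and 10.7 in *aly* against 9.02, 9.29 and 13.5 in LC1 and 0 in LC2 (1.65 ± 0.29), and its sign turned against LC1 alone (-0.11 ± 0.32, adjusted p = 0.863, limma with Benjamini-Hochberg adjustment). The remaining 2, CR43609 (23.6 and 26.0 in *aly* against 10.4 to 11.7 in LC1 and 3.82 to 7.04 in LC2) and *ASTR* (CR43628, 36.2 and 36.9 against 8.92 to 15.2 in late libraries), are antisense to *Ir21a* and *Rga*, which rose as well.

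The remaining 54 members that reach 8 in LC1 or LC2 did not pass the test in either direction, and 46 of them reached 8 in *aly*. Their medians were 30.9 RPKM in *aly*, 33.0 in LC1 and 34.8 in LC2, and 21 in EC. CR43297, an X-linked lncRNA, stood at 121 and 137 in *aly* against 115.1, 100.5 and 90.2 in LC1 and 111, 217 and 243 in LC2 (-0.07 ± 0.67), 0.97 ± 0.68 under quantile scaling. CR43656, also on X, stood at 57.2 and 56.7 in *aly* against 57.1, 61.1 and 57.6 in LC1 and 49.2, 77.2 and 73.5 in LC2 (-0.12 ± 1.14). The pseudogene CR42875 (-0.07 ± 0.91) and CR43497 (-0.12 ± 0.39), now merged into *CG32700* per RefSeq, were the other 2 nearest to 0. The standard errors of these 4 run from 0.39 to 1.14, and missing the threshold does not show that their levels were equal. These errors draw on the spread within all 9 groups, not on *aly* and late libraries alone. CR43656, with the error of 1.14, had 0 and 95 reads in the GB libraries and 79 and 0 in S4.

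Several of the most abundant members of late spermatocytes were also abundant in *aly*. CR32690 stood at 159 and 199 RPKM in *aly* against 246, 243 and 374 in LC1 and 276, 411 and 749.7 in LC2, and CR9284 at 159 and 188 against 257, 258 and 422 in LC1 and 300.3, 408 and 731 in LC2. CR42767 stood at 182 and 245 in *aly* against 257, 257 and 389 in LC1 and 285, 418 and 672 in LC2 (-0.76 ± 0.59, adjusted p = 0.341, limma with Benjamini-Hochberg adjustment). These 3, with CR32658 and CR32661, were the 5 members at or over 50% of the limit of 1 read per base in every *aly* and late library, at 64.1 to 89.2% of it in *aly* and 66.8 to 94.3% in LC1 and LC2. The limit is lower in *aly*, and its part in the values of these 5 was not tested. They were picked by a high level on both sides, and other members abundant in late spermatocytes were low in *aly*. CR32835 stood at 6.33 and 3.12 RPKM in *aly* against 180 to 253 in LC1 and 214 to 465 in LC2. CR33218 stood at 26.4 and 5.76 in *aly* against 166 to 217 in LC1 and 221 to 534 in LC2. Among the 158 members under 50% of the limit in every library compared, 79 fell and 8 rose, and among the 82 that share no base with a gene 50 fell and 1 rose.

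**Figure D4:**
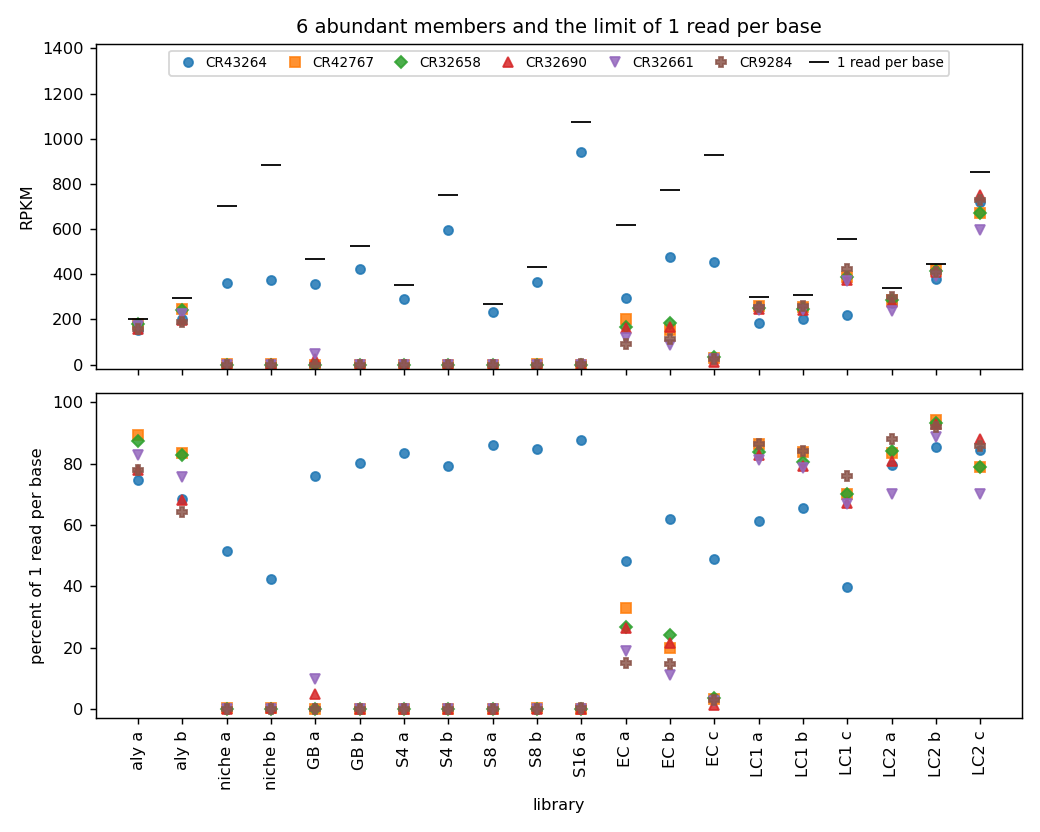
RPKM (top) and percent of the limit of 1 read per base (bottom) of 6 abundant members in each recovered library, with *aly* at the left and the stages after it; dashes mark the limit of each library. CR43264 lies at 39.6 to 87.7% of the limit throughout, and the other 5 at 64.1 to 94.3% in *aly*, LC1 and LC2 but at 32.9% or less before LC1.

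Whether a member fell in *aly* went with its level in EC. The late values that chose these members are also a side of the test, so the shares that follow are a description. Of the members that reach 8 in LC1 or LC2, 82 of 99 under 8 RPKM in EC fell (82.8%), beside 69.8% of genes chosen alike, and 12 of 56 at 8 or more in EC (21.4%), beside 13.8%. On chromosome X, 10 of 29 fell (34.5%), against 82 of 119 on chromosomes 2, 3 and 4 (68.9%). Among genes chosen alike the share was also lower on X, 18.1% against 28.5%. X members were already at 8 in EC more often, 21 of 29 (72.4%) against 31 of 119 (26.1%). Within members at 8 in EC, 4 of 21 fell on X and 7 of 31 on the autosomes, with median differences of -0.76 and -0.28. Within members under 8 in EC, 6 of 8 fell on X (75.0%) and 75 of 88 on the autosomes (85.2%), with medians of -3.08 and -4.10. There 66.0% and 71.1% of genes chosen alike fell. Of all genes at 8 in LC1 or LC2, 83.0% on X and 76.0% on the autosomes were at 8 in EC. By class, 60 of 89 lncRNAs (67.4%), 19 of 29 antisense RNAs (65.5%) and 11 of 27 pseudogenes (40.7%) fell, beside 26.7% of all genes at 8 in LC1 or LC2. Of the 7 that rose in this set, 3 were antisense RNA, 1 lncRNA and 3 pseudogenes. The classes were not split by level in EC, so no difference between them is read from these shares.

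**Figure D5:**
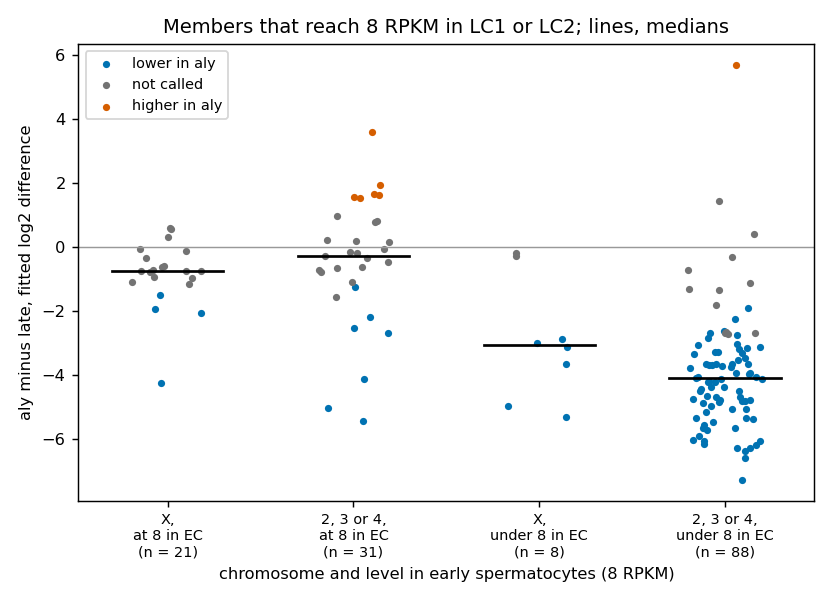
Fitted log2 difference of *aly* minus late spermatocytes (y axis) for members that reach 8 RPKM in LC1 or LC2, split on the x axis by chromosome and by whether the EC mean reaches 8 RPKM; lines are medians and colours show the call. The groups under 8 in EC centre on -3.08 and -4.10, those at 8 in EC on -0.76 and -0.28.

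The X-linked members that were on in EC lay partly together. CR32657 and CR32658 are 3568 bases apart, and CR32661, CR43157 and CR32660 follow each other at 446 and 346 bases. CR32661 stood at 169 and 222 RPKM in *aly* against 239 to 597 in late libraries and 117, 84.99 and 22.7 in EC, with no read in spermatogonia. GB library a held CR32661 at 45.8 RPKM, CR32657 at 13.3, CR32660 at 8.84 and CR43157 at 5.69. GB library b had no read of any of them, and CR32658 had none in either. Of the 17 X-linked members that rose in EC, 3 fell in *aly* against late spermatocytes (17.6%), and of the 24 autosomal ones 5 did (20.8%). The share of all genes fitted was 18.1%, but those genes were not chosen by a rise in EC, so the shares are not alike.

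Against EC, the earlier stage, fewer members differed. In *aly* cysts 12 rose and 9 fell, beside 8.44% and 7.11% of all genes fitted, and the median difference was 0.00 for members and 0.16 for all genes, also at the bounds. With members that reach 8 outside the comparison 11 of 182 rose (6.04%), beside 7.27% of genes, and 9 fell (4.95%), beside 8.61%. Quantile scaling, which moves the median gene by -0.32, gave 13 higher and 15 lower. CR43356, an lncRNA of 2L, stood at 130 and 148 RPKM in *aly* against 4.95, 4.65 and 1.86 in EC (4.93 ± 0.90, adjusted p = 0.00121, limma with Benjamini-Hochberg adjustment), and reached 93.2 to 112 in LC1. CR33987 (41.5 and 3.29, 3.45 ± 0.48), CR43306 (95.7 and 14.5, 3.07 ± 0.59) and CR43297 (129 and 27.0, 2.81 ± 0.74), each given as the *aly* and the EC mean, were higher in *aly* as well as in LC1 and LC2. CR33987 shares 883 of its 1047 bases with *tio* on the same strand (r = 0.951 over the 9 stage values), so the reads of the pair may be shared. CR12842 (2.80 and 29.6), CR42491 (12.3 and 77.5), CR32207 (30.5 and 124) and CR18854 (94.6 and 318) fell, by 1.69 to 2.91. Both comparisons share the *aly* libraries, so their calls are not independent.

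Over 46 pairs of a member and a protein-coding gene with shared exon bases on the opposite strand, r over the 9 stage values had a median of 0.754, and 17 pairs (37.0%) were over 0.9. For the 177 members and their nearest protein-coding gene without a shared base the median was 0.438, and 33 (18.6%) were over 0.9. In 19 of the pairs the member fell in *aly*, and the partner fell in 9 of those 19 (47.4%) and in 2 of the other 27 (7.41%). CR43477 had no read in *aly* against 19.8 to 28.9 RPKM in LC1 and 37.4 to 56.01 in LC2 (-5.07 ± 0.28), and its partner *CG12256* differed by -4.93 ± 0.29. CR43465 shares all 1167 of its bases with *Ucp4B*, an uncoupling protein gene of mitochondria, and the pair differed by -4.07 ± 0.34 and -4.04 ± 0.35. CR43160 shares 321 bases with the homeobox gene *otp*, which followed it over the 9 stages (r = 0.984) and differed by -2.40 ± 0.32, but was not called because its late means stayed under 8 RPKM. Without the strand, such pairs may be the same reads counted under both names.

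Other pairs differed from each other. CR43430 lies wholly within exons of *hts*, an adducin gene of the germline cytoskeleton, and fell by 3.67 ± 0.61 (1.82 and 0.935 RPKM in *aly* against 19.6 to 40.1 in late libraries), while *hts* differed by 0.36 ± 0.41. CR43476 fell by 3.73 ± 0.37 while its partner *CG42534*, with 401 shared bases, rose by 1.08 ± 0.26.

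Sperm genes and named noncoding RNAs gave a frame for these values. Of 14 spermatid genes 5 fell in *aly* against late spermatocytes and 0 rose, including *dj*, a sperm tail protein (-2.27 ± 0.57), *fzo*, the mitofusin of spermatids (-3.06 ± 0.39), and *CG17666* (-3.25 ± 0.48). Of those that did not pass, *ocn* (216 RPKM in *aly*), *Mst84Dc* (208) and *Mst84Db* (192) stood near the limit of 1 read per base there, 204 and 293 RPKM. *Mst84Da* (121) and *gdl* (32.3) stood further below it, and the part of the limit in these values was not tested. Of 9 tMAC subunits 1 rose (*vis*, 1.53 ± 0.56) and 0 fell, and 0 of 4 measured testis TAFs passed either way. Of 14 noncoding RNAs with names that are not CR numbers, 2 rose and 0 fell, *bxd* of the bithorax region (15.3 RPKM in *aly* against 1.15 in LC1 and 1.001 in LC2, 2.98 ± 0.22) and the snoRNA host *Uhg5* (1.89 ± 0.61). The dosage compensation RNAs *roX1* (6.06 RPKM in *aly* against 6.76 in LC1 and 5.07 in LC2) and *roX2* (0.888 against 0.369 and 0.917) did not pass. Of somatic markers, hub genes summed to 7.61 to 17.2 RPKM in *aly* against 21.7 to 61.2 in late libraries, cyst cell genes to 34.8 to 42.6 against 53.0 to 118 and muscle sheath genes to 11.7 to 21.7 against 8.79 to 38.9, with no gene of the 3 lists at 0 in all libraries of either side. Of the 4 hub genes 1 fell in *aly* (*os*, -3.04 ± 0.75) and 0 rose, with *hh* at 0.58 ± 0.31 and *Fas3* at 0.13 ± 0.60. Of the 4 cyst cell genes 1 fell (*so*, -1.93 ± 0.71) and 0 rose, with *tj* at -0.04 ± 0.88, and 0 of 6 muscle sheath genes passed. The hub and cyst cell sums were lower in *aly* libraries, but single genes of both lists differed in sign or size, and their part in the falls of the members was not tested.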

How the data were processed

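The values are RPKM that the authors deposited as 1 mean per stage, per the file headers, which also write cRPKM without explaining it. Bowtie 0.12.7 and edgeR appear, with no role, in the submitters' processing notes. Build, annotation, strand and treatment of duplicates were not given in the sources used. Whole reads per library were recovered from the means, which are averages of reads over gene length and library size. Recovered libraries carry no replicate number and are lettered a, b and c by effective size, largest first.

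limma 3.58.1 (R 4.3.3) was fitted to log2(RPKM + 1) of 20 libraries, with 9 group means, a pooled trended variance (residual df 11, prior df 3.9) and the 12478 genes with at least 1 RPKM in 2 libraries. All tests were two-sided, with p-values adjusted over all genes by Benjamini-Hochberg. The lone S16 library is assumed to vary like the others. A pseudocount of 1 understates changes of low genes. Bounds set the side without reads at 3 reads per library. The recovery and the fit were tested on simulated data. Positions and classes come from the Ensembl BDGP6.54 annotation, matched by gene ID, and 8 names from RefSeq.

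The members and lists were chosen with earlier results of these data known. Named are CR43264 and CR33319, the 3 highest members per stage group, the 6 largest called differences each way in aly against late, the 4 nearest 0, the 4 largest each way in EC against spermatogonia and late against EC, the 3 genes most like the first 2, overlapping genes and list members. Others, named as examples of a count, of a level, of a gene family or of overlap (among them CR32661, CR32835, CR33218, CR43283, CR43430, CR43435, CR43465, CR43476, CR43477, CR43609 and CR43628), were chosen after their values were seen. Alternatives covered the pseudocount, filters, scaling, thresholds, error model, late stage and each library left out.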

Additional observations from a re-analysis of the deposited data

How the results depend on the processing

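No paired analysis was possible because the recovered libraries carry no replicate number. Counts of members called higher or lower stayed within 1.5 times of the reported ones except as follows. In aly against late spermatocytes (9 higher, 94 lower), 14 were higher with a minimum of 4 RPKM, 18 with variance weights per stage, 16 in a fit of the groups compared only, 4 with LC1 only, 1 among members sharing no base with a gene and 4 among lncRNAs and antisense RNAs, a set chosen after seeing the data. There 16 were lower among members that reach 8 RPKM outside the comparison and 50 among those sharing no base. In aly against EC (12 and 9), 20 were higher with weights and 4 with no shared base, and 15 were lower under quantile scaling, 17 with weights, 14 in a fit of the groups only, 1 with no shared base and 4 among lncRNAs and antisense RNAs. In EC against spermatogonia (43 and 9), 15 were higher with no shared base, and 21 were lower under quantile scaling, 2 with no shared base and 5 among lncRNAs and antisense RNAs. In late spermatocytes against EC (113 and 20), 33 were higher among members reaching 8 outside and 61 with no shared base, and 9 were lower at a 4-fold difference of stage values, 2 with no shared base and 10 among lncRNAs and antisense RNAs. Sets of fewer members give fewer calls by construction, and for the other settings the cause was not tested. Leaving out each library in turn gave 6 to 9 higher and 86 to 95 lower in aly against late, 8 to 15 and 4 to 12 in aly against EC, 34 to 44 and 4 to 9 in EC against spermatogonia, and 102 to 114 and 14 to 21 in late against EC. The lower count was 4 in aly against EC without aly library a and 4 in EC against spermatogonia without EC library a. CR42842 turned to -0.108 with LC1 only. Of the tests of named members under the alternatives, 607 kept direction and call, 23 lost the call and 1 moved. Members highest in LC1 or LC2 numbered 124 as reported, 135 of 211 at a threshold of 4 RPKM, 109 of 156 at 16, 124 with stages scaled to their medians and 132 of 184 without the aly column. Depth limits the detection of low members most in S16, a single library of 810498 recovered reads, the fewest of all 20.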
